A study of Mus musculus with 16 samples.

Results

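The HoxB cluster holds the 10 genes Hoxb1 to Hoxb9 and Hoxb13, and their expression was followed here in mouse embryoid bodies (EBs) before and after treatment with retinoic acid (RA). The genes were chosen by symbol, and all 10 were found among the 24222 genes with a RefSeq row in the deposited FPKM (fragments per kilobase of transcript, scaled to the fragments mapped) table. They occupied 11 of its 33702 RefSeq rows, because Hoxb3 has 2. All 10 were above 0 in at least 1 library and entered the test of 20543 genes.

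EBs were formed from R1 mouse embryonic stem cells, kept for 4 days without Lif in low-binding dishes, and then given 2 µM RA for another 4 days. Day 0 is the day RA was added, so the day 0 EBs had received none, and day 4 EBs were both older and treated. No untreated EBs of the later age were among the samples, and hence RA and time in culture cannot be told apart in any difference below. The procedure was repeated to give 2 RNA samples for each day. Each RNA was divided into 4 vials that received IVT mix 1, 2, 3 or 4 and ERCC mix 1 or 2. IVT mixes 1 to 3 held spike-in transcripts, and mix 4 was a control that held none of them. This gave 16 strand-specific libraries of ribosome-depleted total RNA. The labels give the cell type as embryonic stem cells, while the samples are EBs, a mixture of differentiating cells.

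Hox genes encode homeodomain transcription factors that give cells their position along the head to tail axis of the embryo. The genes of a cluster are transcribed in the same direction, those at the 3' end (Hoxb1) are usually switched on first and most anteriorly, and those at the 5' end (Hoxb9, Hoxb13) later and more posteriorly. RA is a known inducer of the 3' genes, through receptors that bind response elements made of repeated core sequences close to these genes, and in the hindbrain Hoxb1 to Hoxb4 mark successive segments.

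In the RefSeq annotation of GRCm38.p6 the cluster runs on the plus strand over chr11:96194316-96368254, a span of 173.9 kb. Its 5' gene Hoxb13 (NM_008267, chr11:96194316-96196610) is separated from Hoxb9 (NM_008270, chr11:96271330-96276595) by 74.7 kb, while Hoxb9 to Hoxb1 are packed into 96.9 kb. Next come Hoxb8 (NM_010461, chr11:96279401-96285325), Hoxb7 (NM_010460, chr11:96285604-96290163), Hoxb6 (NM_008269, chr11:96292814-96301569) and Hoxb5 (NM_008268, chr11:96303512-96306121). Hoxb4 (NM_010459, chr11:96318267-96321638) lies inside the span of Hoxb3 (chr11:96307101-96347930), since RefSeq includes long Hoxb3 transcripts that begin beyond it. The 3' end of the cluster holds Hoxb2 (NM_134032, chr11:96351632-96354020) and Hoxb1 (NM_008266, chr11:96365746-96368254).

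The RefSeq promoter table of the same build had an entry for 3 of the 10 genes, and the 250 bases before the start site used in that table are shown for these because they include a gene that rose (Hoxb4) and 2 that did not pass the test (Hoxb1 and Hoxb8). All are on the plus strand, Hoxb1 at chr11:96365508-96365757, Hoxb4 at chr11:96318017-96318266 and Hoxb8 at chr11:96281655-96281904. Capitals mark matches, on either strand, to the RA receptor core (AGGTCA and its variants AGTTCA as well as GGGTCA along with GGTTCA), to TGATNNAT (a letter pattern of combined Pbx and Hox binding), to CCAAT and to TATAAA.
Hoxb1: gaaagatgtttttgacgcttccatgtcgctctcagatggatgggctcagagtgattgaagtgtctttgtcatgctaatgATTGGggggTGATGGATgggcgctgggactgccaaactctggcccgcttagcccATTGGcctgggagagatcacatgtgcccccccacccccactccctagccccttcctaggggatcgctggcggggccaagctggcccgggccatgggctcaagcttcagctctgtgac
Hoxb4: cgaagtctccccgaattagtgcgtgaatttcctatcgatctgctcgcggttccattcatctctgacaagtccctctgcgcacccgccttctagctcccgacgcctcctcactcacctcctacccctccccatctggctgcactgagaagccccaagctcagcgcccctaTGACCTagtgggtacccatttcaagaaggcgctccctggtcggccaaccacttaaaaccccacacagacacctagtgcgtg
Hoxb8: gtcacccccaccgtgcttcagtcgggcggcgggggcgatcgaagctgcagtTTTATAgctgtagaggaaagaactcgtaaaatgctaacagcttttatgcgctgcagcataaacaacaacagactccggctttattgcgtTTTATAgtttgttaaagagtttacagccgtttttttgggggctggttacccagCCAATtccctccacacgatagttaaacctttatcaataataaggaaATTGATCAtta

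The Hoxb1 window held a TGATNNAT match, TGATGGAT, 162 to 155 bases before the start, and 2 CCAAT matches on the minus strand. In the Hoxb4 window there was 1 receptor core, TGACCT on the plus strand as printed, 81 to 76 bases before the start. Hoxb8 had a TGATNNAT match at 11 to 4 bases, 2 TATAAA matches on the minus strand and 1 CCAAT. The matches did not overlap. None of the 3 windows held a direct repeat of the core with a spacer of 1, 2 or 5 bases. Of 32851 promoter windows of the same length, 38.6% held a core, 7.68% TGATNNAT, 33.8% CCAAT and 12.4% TATAAA, and direct repeats with these spacers were in 0.164%, 0.174% and 0.0883%. These are matches of letters and say nothing about binding. The windows differed in base composition, with 59.2% GC for Hoxb1, 58% for Hoxb4 and 44.4% for Hoxb8 against a median of 52.4%, and all had more CpG dinucleotides (7, 14 and 12) than the median promoter, which had 6.

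The dependence of levels on GC content differed between the days, and some libraries stood apart from the others of their group. The level of GC-rich relative to GC-poor transcripts, as the log2 deviation from the mean of all libraries at 60.8% against 38.7% GC, was 2.43 to 2.67 in the vials of day 0 RNA sample 1, but 1.94, 1.12, -2.26 and -1.84 in the vials of mixes 1 to 4 of day 0 RNA sample 2. At day 4 it lay between -1.68 and -0.41. GC dependence thus differed between the days, except in the mix 3 and mix 4 vials of day 0 RNA sample 2. Those vials are unlike their own RNA in the other vials. In that RNA sample they were above the mix 1 and mix 2 vials for Hoxb2 and Hoxb7. They were below them for Hoxb1, Hoxb5, Hoxb6 and Hoxb8. The HoxB rows have 51.2% to 62.6% GC. The paper gives the reads of each library, but the table gives no fragment counts of single values, and no counting interval is given.

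The marker genes of the cells changed between the days, in a test that called 16% of all genes tested higher and 14.5% lower. Of 9 pluripotency markers, 8 fell, and their summed level was 102 to 208 FPKM in the day 0 libraries and 6.96 to 12.3 at day 4, which at day 4 goes against the label of embryonic stem cells. Of 7 mesoderm markers 3 fell and 2 rose (summed level 106 to 161 against 72.4 to 80.2 FPKM). T, the primitive streak factor, fell from 67.0 to 0.019 FPKM, Hand1 from 27.1 to 0.0406 FPKM and Tbx6 from 0.315 to 0.0225 FPKM. Twist1 rose from 10.2 to 43.1 FPKM and Meox1 from 0.164 to 2.78 FPKM. Foxf1 (22.5 and 30.5 FPKM) and Tcf15 (1.71 and 0.573 FPKM) did not pass. Endoderm markers rose for 4 of 6 and fell for none (14 to 17.6 against 75.3 to 78.3 FPKM), and Gata6 alone went from 6.36 to 54.4 FPKM. Gata4 went from 6.60 to 18.6 FPKM. Foxa2 and Afp also rose, but only to 0.825 and 0.773 FPKM, and Sox17 (2.14 and 1.56 FPKM) and Ttr did not pass. For endothelium and blood 2 of 5 fell and none was called higher (summed level 66.2 to 109 against 87.5 to 117 FPKM). Kdr fell from 45.0 to 17.2 FPKM and Gata1 from 1.56 to 0.214 FPKM. Hbb-bh1 (33.7 and 69.7 FPKM), Pecam1 (9.80 and 11.6 FPKM) and Cdh5 (5.25 and 3.91 FPKM) did not pass. Neural progenitor markers were divided, with 2 higher and 2 lower of 9 (18.5 to 26.1 against 18.7 to 21.5 FPKM), and all except Nes had a mean below 1 FPKM on both days. In bulk RNA, a change in the number of cells of a type and a change in RNA per cell cannot be told apart. The part of these shifts in the HoxB results was not tested.

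Between the days, 6 HoxB genes rose (Hoxb2, Hoxb3, Hoxb4, Hoxb5, Hoxb7 and Hoxb13) and none fell, whereas Hoxb1, Hoxb6, Hoxb8 and Hoxb9 did not pass the test. This compares with 16% of all 20543 genes called higher and 14.5% called lower in the same limma fit (Benjamini-Hochberg adjusted p of at most 0.05, 2 RNA samples against 2). The median log2 fold change (day 4 minus day 0) was 2.23 over the 10 genes and -0.03 over all genes. Summed over the cluster, the level was 15 to 21.3 FPKM (median 17.8) in the 8 day 0 libraries and 88.9 to 102 FPKM (median 94.7) in the 8 day 4 libraries. The 6 genes that rose are also those whose day 0 and day 4 libraries did not overlap, as the plot of HoxB levels in each library shows. Of all genes tested, 19.8% had every day 4 library above every day 0 library and 14.6% had every one below. Leaving out either RNA sample of day 0 kept 6 HoxB genes called higher. Leaving out either of day 4 leaves 1 sample in that group, which is then assumed to vary like the day 0 pair, and 0 genes in the whole table passed the adjusted threshold of limma, although 4941 and 4720 had an unadjusted p of at most 0.05. The log2 fold changes of the 6 genes then lay between 1.83 and 4.88. Without the mix 3 and mix 4 vials of day 0 RNA sample 2, 6 HoxB genes were again called higher. In FPKM corrected for GC content 7 were, and the log2 fold change of every HoxB gene was higher than without the correction. For Hoxb1, Hoxb6, Hoxb8 and Hoxb9 it was then 0.44, 0.86, 0.95 and -0.10. The part of GC dependence in the differences between days was not tested.

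**Figure D1:**
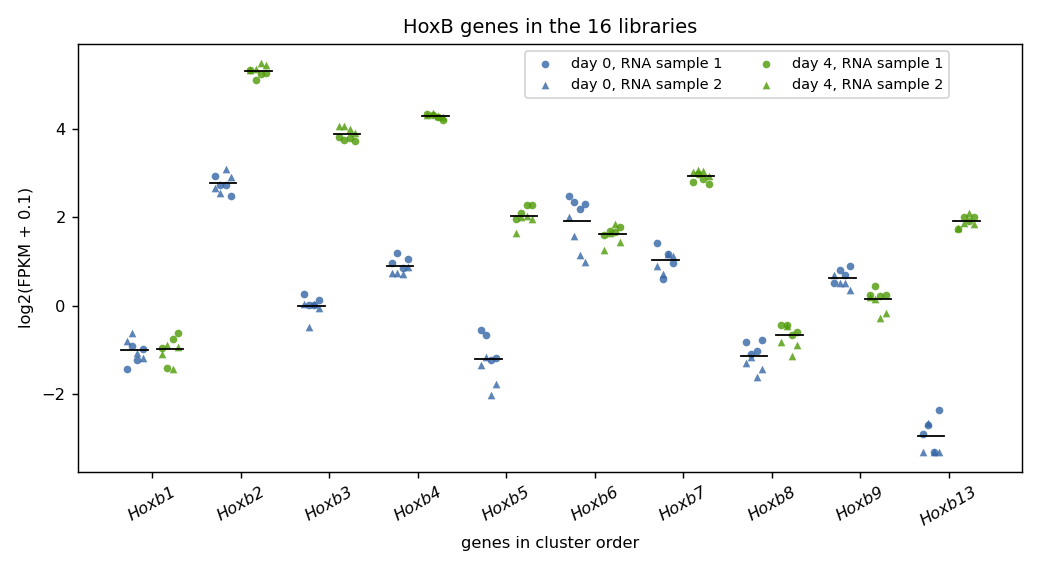
Level of each HoxB gene as log2(FPKM + 0.1), in cluster order from Hoxb1 to Hoxb13. Points are the 16 libraries (circles, RNA sample 1, and triangles, RNA sample 2), blue for day 0 and green for day 4, and black lines are means of the 2 RNA samples of a day. The colours separate fully for Hoxb2, Hoxb3, Hoxb4, Hoxb5, Hoxb7 and Hoxb13 and overlap for the other 4 genes.

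Hoxb1, the most 3' gene and an early marker of hindbrain segmentation, was low on both days. Its level was 0.27 to 0.55 FPKM (median 0.392) in the day 0 libraries and 0.268 to 0.548 FPKM (median 0.416) in the day 4 libraries. These ranges coincide almost fully. The RNA samples were at 0.359 and 0.435 FPKM at day 0 and at 0.433 and 0.374 FPKM at day 4, a log2 fold change of 0.02 ± 0.22 (SE, adjusted p = 0.946) with a 95% interval from -0.59 to 0.63.

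Hoxb2, which acts downstream in the same hindbrain segments, was the most abundant HoxB gene on both days. It rose from 5.54 to 8.53 FPKM (median 6.60) to 34.4 to 44.9 FPKM (median 40.3). Every day 4 library was above every day 0 library by a wide margin. With 6.57 and 6.99 FPKM in the RNA samples of day 0 and 37.8 and 42.5 in those of day 4, the log2 fold change was 2.55 ± 0.15 (SE, adjusted p = 0.00475).

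Hoxb3, an anterior gene expressed from the hindbrain backwards, had a larger change on a lower level. Summed over both rows it was at 0.62 to 1.09 FPKM (median 0.914) at day 0 and at 13.2 to 16.8 FPKM (median 14.6) at day 4, with no overlap. The RNA samples gave 0.975 and 0.835 FPKM against 13.6 and 16.1 FPKM, and the log2 fold change was 3.90 ± 0.22 (SE, adjusted p = 0.00468).

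The rows of Hoxb3 are the transcripts NM_001079869 (3190 bases, 4 exons, GENCODE positions chr11:96323326-96347930) and NM_010458 (1890 bases, 2 exons, chr11:96343769-96346507). They have the same coding exons, 1299 bases long, and share 1559 bases in all, so that only reads in the untranslated ends separate them. NM_001079869 was at 0 to 1.00 FPKM (median 0.545) at day 0 and at 8.44 to 10.7 FPKM (median 9.83) at day 4, and NM_010458 at 0 to 0.924 FPKM (median 0.414) and 3.02 to 6.98 FPKM (median 5.30). Both rose in the limma fit of transcript rows, by a log2 fold change of 4.21 ± 0.56 (SE, adjusted p = 0.0258) and 3.45 ± 0.52 (SE, adjusted p = 0.0309).

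The split between the rows varied among vials, most of all at day 0. At day 0 NM_001079869 took anything from 0% to 100% of the Hoxb3 level (median 55.0%), and at day 4 it took 58.0% to 78.0% (median 64.2%). NM_010458 was listed at 0 in the mix 3 and mix 4 vials of day 0 RNA sample 1, and NM_001079869 in the mix 3 vial of RNA sample 2, although these vials contain portions of the same RNA as vials in which both rows were above 0. In the 4 vials of day 4 RNA sample 1 the SD on the log2 scale was 0.041 for the sum, 0.15 for NM_001079869 and 0.37 for NM_010458. In RNA sample 2 of that day NM_001079869, at 0.031, varied less than the sum (0.074), and NM_010458 more (0.22). NM_010458 has the higher GC content, 62.6% against 54.1%. Whether the differences in GC dependence between vials have a part in the split was not tested.

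**Figure D2:**
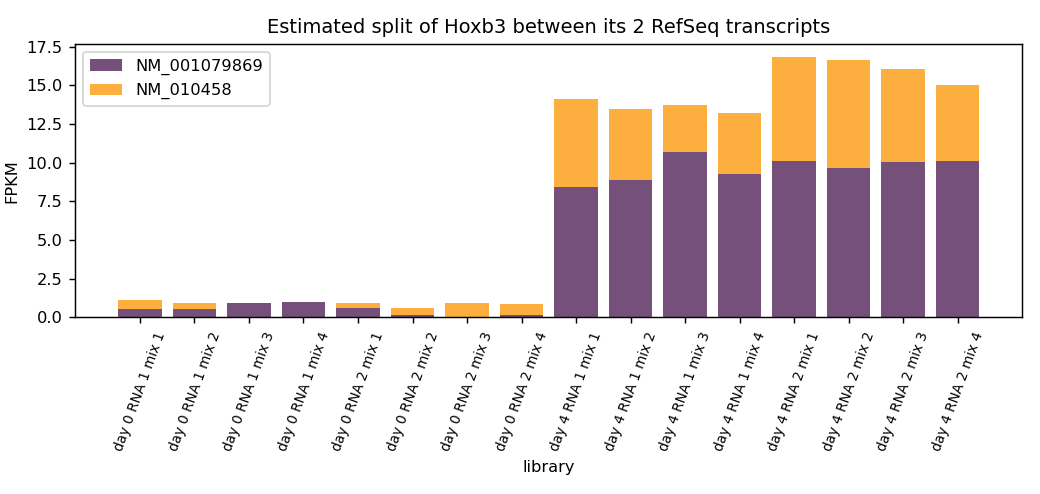
FPKM of the 2 Hoxb3 transcripts in each of the 16 libraries, stacked so that the bar height is the Hoxb3 level. The height stays between 13.2 and 16.8 FPKM in the day 4 libraries, while the purple part (NM_001079869) ranges from 8.44 to 10.7 and the orange part (NM_010458) from 3.02 to 6.98 FPKM.

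Hoxb4, a gene of the posterior hindbrain that is also used to expand blood progenitors, was the second most abundant HoxB gene at day 4. It was at 1.53 to 2.19 FPKM (median 1.72) at day 0 and 18.4 to 20.5 FPKM (median 19.7) at day 4. The groups did not overlap, and the day 4 libraries lay close together. The RNA samples were at 1.93 and 1.59 FPKM and at 19.5 and 19.8 FPKM, which gave a log2 fold change of 3.41 ± 0.19 (SE, adjusted p = 0.00468).

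Hoxb5, known for its role in neural crest and enteric neurons, moved from near the bottom of the order to the middle. Its level was 0.147 to 0.585 FPKM (median 0.33) at day 0 and 3.02 to 4.76 FPKM (median 3.95) at day 4, and the groups did not overlap. The day 0 RNA samples differed, at 0.443 and 0.245 FPKM, by 0.66 on the log2 scale, which was the largest difference among the 6 genes that rose. Within RNA sample 2 the vials of mixes 1 to 4 were at 0.294, 0.344, 0.147 and 0.194 FPKM. With 4.38 and 3.67 FPKM at day 4 the log2 fold change was 3.25 ± 0.34 (SE, adjusted p = 0.0103), and it was 3.78 with only the mix 3 vials, which did not pass the test (adjusted p = 0.0692). The lowest adjusted p of the alternatives, 4.18e-08, came from a fit of all 16 libraries with the RNA sample as a random block. That fit enters vials of the same RNA as separate libraries. Apart from the fits without a day 4 RNA sample, the adjusted p of the mix 3 vials was the highest.

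Hoxb6, a gene of trunk mesoderm and of the erythroid lineage, did not share the rise of its neighbours. It was at 1.88 to 5.52 FPKM (median 4.19) at day 0 and 2.31 to 3.50 FPKM (median 3.06) at day 4. The day 4 libraries fell inside the day 0 range. The day 0 RNA samples were at 4.95 and 2.72 FPKM, and within the second the vials of mixes 1 to 4 were at 3.95, 2.90, 2.13 and 1.88 FPKM, lowest in the vials that stood apart in GC dependence. The Hoxb6 row has 58.7% GC. Against 3.11 and 2.87 FPKM at day 4 the log2 fold change was -0.29 ± 0.36 (SE, adjusted p = 0.559), with a 95% interval from -1.30 to 0.72. Without the mix 3 and mix 4 vials of day 0 RNA sample 2 it was -0.45 (adjusted p = 0.159). Its sign turned in the FPKM corrected for GC content, to 0.86 (adjusted p = 0.142), and over all alternatives the adjusted p ranged from 0.059 to 1.

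Hoxb7, a trunk gene between Hoxb6 and Hoxb8, rose. It was at 1.41 to 2.59 FPKM (median 1.96) at day 0 and at 6.67 to 8.29 FPKM (median 7.70) at day 4, with no overlap. The RNA samples were at 2.00 and 1.89 FPKM and at 7.16 and 8.04 FPKM, a log2 fold change of 1.91 ± 0.20 (SE, adjusted p = 0.0101), the smallest of the 6. In the mix 3 vials alone it was 1.79 (adjusted p = 0.0631). That was the highest adjusted p of the alternatives, apart from the fits without a day 4 RNA sample. The lowest, 2.22e-07, came from the fit of all 16 libraries with the RNA sample as a random block.

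Hoxb8, best known from myeloid progenitors and from grooming behaviour in mice, stayed below 1 FPKM. The day 0 libraries were at 0.226 to 0.484 FPKM (median 0.355) and the day 4 libraries at 0.354 to 0.642 FPKM (median 0.544). The groups overlapped. From 0.425 and 0.286 FPKM to 0.592 and 0.472 FPKM in the RNA samples, the log2 fold change was 0.48 ± 0.27 (SE, adjusted p = 0.242). It passed the test in the FPKM corrected for GC content (0.95, adjusted p = 0.0127) and in the mix 2 vials alone (0.69, adjusted p = 0.0411), and over all alternatives the adjusted p ranged from 0.0127 to 0.631.

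Hoxb9, a posterior gene of the thoracic region, was at 1.18 to 1.77 FPKM (median 1.42) at day 0 and 0.726 to 1.26 FPKM (median 1.06) at day 4. Only the upper end of the day 4 range reached into that of day 0. The RNA samples went from 1.57 and 1.34 FPKM to 1.13 and 0.895 FPKM, with a log2 fold change of -0.49 ± 0.26 (SE, adjusted p = 0.228). The fit of all 16 libraries with the RNA sample as a random block called it lower (adjusted p = 0.0336, and 0.0336 to 0.716 over the alternatives). No other alternative called Hoxb9 lower.

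Hoxb13, the most posterior gene, which is normally expressed in the tail bud and later in the prostate and hindgut, was nearly absent at day 0 and present at day 4. It was listed at 0 in 4 of 8 day 0 libraries and reached 0.095 FPKM in the highest, while the day 4 libraries were at 3.25 to 4.18 FPKM (median 3.61). All day 4 libraries were far above all those of day 0. RNA samples were at 0.0458 and 0.0148 FPKM and at 3.71 and 3.63 FPKM, and the log2 fold change was 4.87 ± 0.25 (SE, adjusted p = 0.00462). Its size depends on the pseudocount, being 6.63 with 0.01 FPKM and 2.18 with 1 FPKM, and it passed the test with both. With 1 FPKM it was below the values of Hoxb3 (3.06), Hoxb4 (2.90) and Hoxb2 (2.40). The fold change of Hoxb5 also shrank with a pseudocount of 1 FPKM, to 1.90.

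The changes along the cluster therefore had no single boundary. Hoxb1 did not pass, Hoxb2 to Hoxb5 rose, and from Hoxb6 to Hoxb9 only Hoxb7 rose. Hoxb6 was above its neighbour Hoxb7 in 6 of 8 libraries at day 0, all but the mix 3 and mix 4 vials of RNA sample 2, and in 0 of 8 at day 4. Likewise Hoxb9 was above Hoxb13 in 8 of 8 libraries at day 0 and in 0 of 8 at day 4, and Hoxb5 was above Hoxb6 in 0 of 8 and then in 8 of 8. Hoxb2 exceeded Hoxb3, and Hoxb4 exceeded Hoxb5, in 8 of 8 libraries on each day.

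The order of levels, in FPKM and thus per length, was rearranged. At day 0 it ran Hoxb2, Hoxb6, Hoxb7, Hoxb4, Hoxb9, Hoxb3, Hoxb1, Hoxb8, Hoxb5 and Hoxb13, where Hoxb6 and Hoxb7, Hoxb7 and Hoxb4, Hoxb4 and Hoxb9, Hoxb1 and Hoxb8, and Hoxb8 and Hoxb5 had overlapping libraries. At day 4 it ran Hoxb2, Hoxb4, Hoxb3, Hoxb7, Hoxb5, Hoxb13, Hoxb6, Hoxb9, Hoxb8 and Hoxb1, and the pairs Hoxb5 and Hoxb13, Hoxb13 and Hoxb6, and Hoxb8 and Hoxb1 overlapped. As shares of the HoxB total, the median for Hoxb2 was 36.3% before RA and 42.2% after 4 days, and for Hoxb4 it was 9.88% and 20.8%. Hoxb3 went from 5.23% to 15.3%, while Hoxb6 went from 23.7% to 3.23% and Hoxb9 from 8.44% to 1.13%. The total of which these are shares was larger at day 4, and the levels of Hoxb6 and Hoxb9 themselves did not pass the test.

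**Figure D3:**
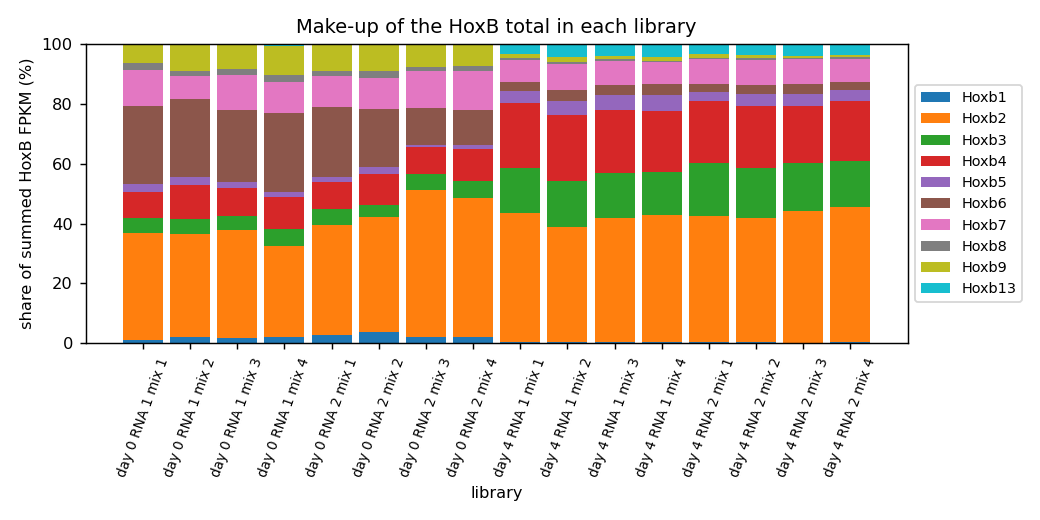
Share of each gene in the summed HoxB FPKM of each of the 16 libraries, in percent, stacked from Hoxb1 at the bottom to Hoxb13 at the top. Hoxb2 (orange) holds the largest share in every library, the median for Hoxb6 (brown) is 23.7% before RA and 3.23% after 4 days, and Hoxb13 (cyan) is at most 0.52% in the day 0 libraries and 3.45% to 4.45% at day 4.

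For each of the 6 genes that rose, the spread over vials was larger at day 0, when its level was lower, than at day 4. Their SD over the 4 vials of an RNA sample was 0.071 to 0.40 on the log2 scale at day 0 and 0.035 to 0.18 at day 4. The RNA samples differed by at most 0.66 at day 0 and 0.25 at day 4. The log2 fold changes of the 6 genes were 1.91 to 4.87. The other genes did not all share the larger day 0 spread. The larger vial SD of Hoxb1, Hoxb8 and Hoxb9 was 0.26, 0.19 and 0.17 at day 0 and 0.34, 0.28 and 0.23 at day 4. That of Hoxb6 was 0.46 at day 0 and 0.25 at day 4.

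Genes inside and beside the cluster did not follow the HoxB genes as a block. Of the lncRNAs between Hoxb13 and Hoxb9, Gm11538 rose from 0.0405 to 0.446 FPKM (log2 fold change 1.94 ± 0.26 SE, adjusted p = 0.0163) and Gm53 fell from 0.424 to 0.029 FPKM (-1.90 ± 0.45 SE, adjusted p = 0.048). The microRNA genes Mir10a and Mir196a-1 were listed at 0 in every library. The libraries were made from total RNA with a protocol that is not one for small RNA, so this does not show that they were silent. The antisense transcripts Hoxb3os and Hoxb5os were not analysed here. Beyond Hoxb13, the nearest measured genes Ttll6, Calcoco2 and Atp5g1 did not pass the test (adjusted p = 0.0771, 0.162 and 0.0753). On the other side Skap1, an adaptor protein of T cells 96.3 kb beyond Hoxb1, fell from 1.29 to 0.0855 FPKM (-2.89 ± 0.23 SE, adjusted p = 0.00657), and Gm11529 and Snx11 did not pass (adjusted p = 0.18 and 0.102).

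**Figure D4:**
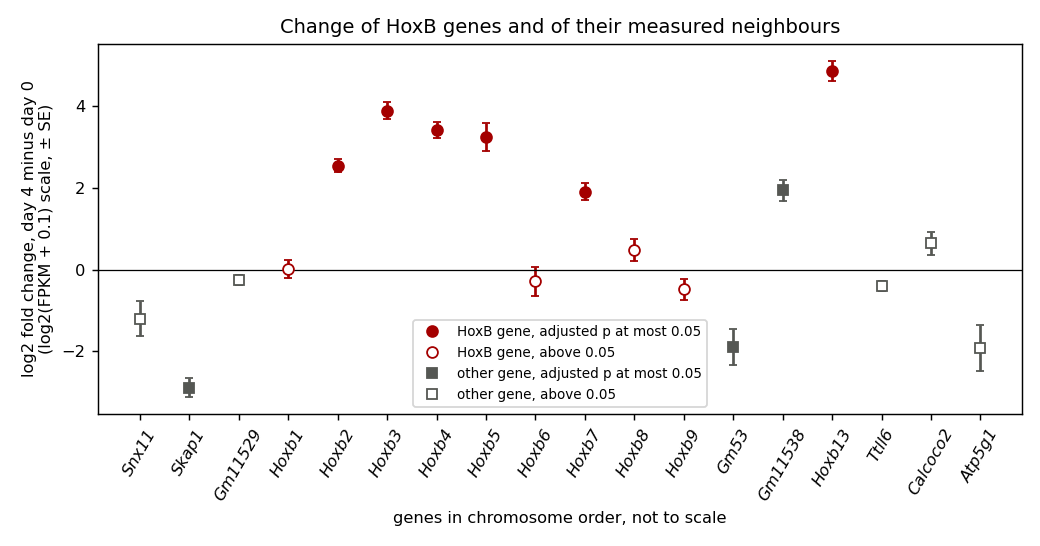
Log2 fold change (day 4 minus day 0, on log2(FPKM + 0.1), ± SE from the limma fit of 2 against 2 RNA samples) of the HoxB genes (red circles) and the measured genes inside and beside the cluster (grey squares), in chromosome order. Filled symbols passed the test. The 6 filled red circles lie between 1.91 and 4.87, and beside them Skap1 and Gm53 lie below 0.

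The other Hox clusters are given for comparison, beside 16% of all genes tested called higher and 14.5% called lower. In HoxA 7 of 11 genes rose and none fell, in HoxC 5 of 9 rose and 1 fell, and in HoxD 2 of 9 rose and 2 fell. The most abundant HoxA genes all rose, Hoxa5 from 0.357 to 85.4 FPKM, Hoxa4 from 0.0714 to 41.1 FPKM and Hoxa2 from 0.0658 to 20.4 FPKM. So did those of HoxC, with Hoxc5 at 0.508 and 74.9 FPKM, Hoxc4 at 0.588 and 35.1 FPKM and Hoxc8 at 2.07 and 22.1 FPKM. Hoxd8 rose from 11 to 20.6 FPKM, Hoxd1 fell from 8.68 to 3.14 FPKM and Hoxd9 was at 6.70 and 5.26 FPKM (adjusted p = 0.236).

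Paralogue by paralogue, the HoxB genes had their own values. In group 1 Hoxd1 fell by a log2 fold change of 1.45 and Hoxb1 was at 0.02. In group 4 Hoxa4 rose by 7.91, Hoxc4 by 5.69 and Hoxb4 by 3.41, and Hoxd4 was at 0.50 (adjusted p = 0.262). In group 13 Hoxb13 rose by 4.87, Hoxc13 was the only HoxC gene to fall (-0.93), Hoxd13 fell by 1.72 and Hoxa13 was at -1.03 (adjusted p = 0.11). These genes were set side by side after their values were seen, and no test of the differences between paralogues was made.

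**Figure D5:**
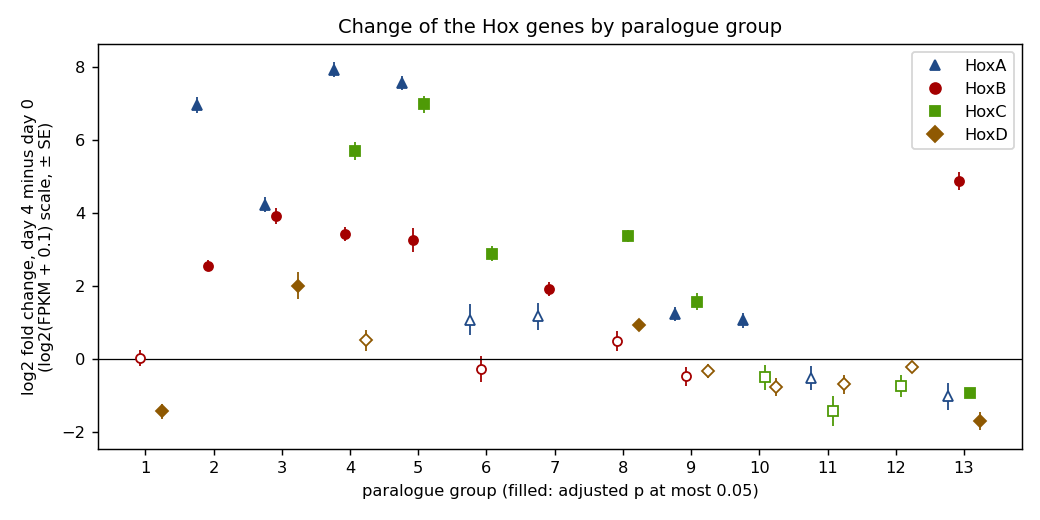
Log2 fold change (day 4 minus day 0, on log2(FPKM + 0.1), ± SE) of Hox genes by paralogue group, with HoxA as triangles, HoxB as circles, HoxC as squares and HoxD as diamonds. Filled symbols passed the limma test. In group 13 the HoxB gene is at 4.87 and the other 3 are below 0, and in group 1 Hoxb1 is at 0.02 and Hoxd1 below 0.

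Genes that receive or limit the RA signal changed in part. Of 9 RA receptor and breakdown genes 2 rose, 2 fell and 5 did not pass the test. For this list and those that follow, the shares of all genes tested were 16% higher and 14.5% lower. Rarb, a receptor that is itself a direct target of RA, went from 0.195 to 107 FPKM, a log2 fold change of 8.50 ± 0.17 (SE, adjusted p = 0.00462). Cyp26b1, an enzyme that breaks down RA, rose from 0.323 to 19.5 FPKM, while the related Cyp26a1 fell from 50.7 to 8.88 FPKM.

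Among 5 factors known to act on Hox genes, 4 fell. Cdx2, a caudal factor that activates trunk Hox genes, fell from 44.5 to 0.188 FPKM, with 18.9 to 60.3 FPKM in the day 0 libraries and 0.111 to 0.272 at day 4. Cdx1 fell from 0.761 to 0.0095 FPKM.

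The cofactors that bind DNA together with Hox proteins rose in 4 of 9 cases and none fell. Meis1 rose from 0.715 to 87.6 FPKM, and Pbx2 was at 28.8 and 41.2 FPKM (adjusted p = 0.144). Of 10 Polycomb and related chromatin genes that were measured, 2 rose and none fell. Rnf2, a Polycomb ubiquitin ligase, rose from 64.1 to 166 FPKM, and the Polycomb subunits Suz12 (89.5 and 89.1 FPKM) and Eed (62.9 and 44.1 FPKM) did not pass (adjusted p = 0.916 and 0.173).

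The mean profile of the 8 HoxB genes with at least 1 FPKM at day 4 was also compared with 20504 genes outside the Hox families over the 16 libraries. After each gene was centred, the smallest root mean square differences on the log2(FPKM + 0.1) scale were those of Lhfpl2 (0.0758), 6330403K07Rik (0.0881), Igdcc4 (0.0922), Ssbp2 (0.101) and Fzd1 (0.103). The log2 fold changes of these genes were 2.31 to 2.49. Single HoxB genes lay farther from their own mean profile, from 0.238 for Hoxb2 to 1.46 for Hoxb9. Hoxb3, Hoxb5 and Hoxb13 entered this profile only through their day 4 level, while Hoxb1 and Hoxb8 did not enter, so its rise follows in part from how it was built and the likeness is a description only.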

How the data were processed

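Total RNA of EBs was sequenced at day 0 (8 libraries) and day 4 (8 libraries). The authors mapped the reads with Bowtie2 2.1.0 to RefSeq transcripts of mm10 and the spike-in transcripts, estimated abundance with RSEM 1.2.18, using strand, and deposited FPKM per transcript that had been TMM-scaled per library. The labels also name TopHat2 2.0.10, which made other files. All 16 columns were matched to samples by title. The labels give day and mix, and the repeat each vial belongs to comes from the study's sample description.

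Here 98.6% of the 33702 RefSeq rows were given a symbol from the RefSeq annotation, the 48 spike-in rows were left out, and FPKM were summed per gene, which gave 24222 genes. Vials of the same RNA are not replicates, so the mean of the 4 was used. Genes at 0 in all 16 libraries (3679) were left out. Day 4 and day 0 were compared on log2(FPKM + 0.1) with lmFit and eBayes (trend) of limma 3.58.1 in R 4.3.3, 2 RNA samples against 2, with Benjamini-Hochberg adjustment over all genes tested. A fold change on this scale understates that of low genes. An exact permutation test of 2 against 2 cannot go below 0.333. GC content came from GENCODE transcripts (97.4% of RefSeq rows). The fit was tested on simulated data. Tables were handled with pandas 2.3.3 and numpy 2.4.6 in Python 3.11.15, and figures were drawn with matplotlib 3.10.9.

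The members and the gene lists were chosen with earlier results of these data known. Named were all HoxB genes and rows, genes inside the cluster and the 3 nearest measured on each side, the 3 members of each list with the highest mean FPKM, any member that alone went against its list, and the 5 genes with the profile most like that of the HoxB genes. A few genes that this rule names are not reported here. Alternatives changed the pseudocount, filter, scaling, GC correction, vials, RNA samples and model.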

Additional observations from a re-analysis of the deposited data

Results flagged for a closer look

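Among the 40 groups of 4 vials (each HoxB gene in each RNA sample), 3 held a vial far from the others. For normally distributed values chance gives about 1 in 20 groups. Hoxb4 in day 0 RNA sample 2 was at 1.722 FPKM in the mix 4 vial and at 1.534 to 1.563 FPKM in the other vials. Hoxb9 in day 4 RNA sample 1 was at 1.265 FPKM with mix 2 and at 1.072 to 1.088 FPKM otherwise. Hoxb13 in day 0 RNA sample 2 was at 0.059 FPKM with mix 2 and listed at 0 in the other vials. With the others at 0, any value above 0 is flagged, so this flag was fixed in advance. The Hoxb4 and Hoxb13 vials lay below all day 4 libraries of their gene, and the Hoxb9 vial was the highest at day 4 and lay within the day 0 range.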

How the results depend on the processing

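With 20 alternatives, the log2 fold changes of the 6 HoxB genes that rose kept their sign in all 120 values and passed the threshold in 106. The other 14 were those without day 4 RNA sample 1 or 2 and those of Hoxb5 and Hoxb7 in the mix 3 vials. Leaving out an RNA sample gave 0 to 6 HoxB genes called higher, and 0 to 3666 genes higher and 0 to 5549 lower in the whole table, against 3281 and 2972. For Hoxb1 the sign turned to -0.38 (only mix 2), -0.0897 (without day 0 RNA sample 1), -0.06 (without day 4 RNA sample 1) and -0.0773 (without the mix 3 and 4 vials of day 0 RNA sample 2), and for Hoxb6 to 0.86 (GC-corrected), 0.0847 (only mix 3) and 0.13 (without day 0 RNA sample 1, where leaving out day 0 RNA sample 2 gave -0.71). Hoxb1 and Hoxb8 were below the filter of a mean of 0.5 FPKM.

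Calls over all genes changed more. GC correction gave 5650 higher and 4994 lower, mix 1 alone 4931 and 6677, mix 3 alone 533 and 184, mix 4 alone 1046 and 367, and leaving out the mix 3 and 4 vials of day 0 RNA sample 2 gave 5555 and 6889. Without a filter 1641 genes were lower. The random block for RNA sample called 4581 lower, among them 1 HoxB gene (Hoxb9). The cause was not tested.

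The RNA samples share only a repeat number between the days. Their differences correlated with r = 0.767 over 11603 genes with at least 1 FPKM, and with a replicate block 5979 genes were called lower. It changed no HoxB call. Rescaling each library to the same total moved the median log2 fold change of all genes by 0.11, and the filter at 0.5 FPKM by -0.14. Depth is unknown, which limits values near 0.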
